A study of Mus musculus with 16 samples.

Results

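The granins, the prohormone-processing enzymes and the genes of serotonin synthesis were examined in labelled and unlabelled epithelial cells of the mouse small intestine. The 10 genes were *Chga*, *Chgb*, *Scg2*, *Scg3*, *Scg5*, *Pcsk1*, *Cpe*, *Tph1*, *Ddc* and *Slc18a1*, chosen by name from 45513 genes, and each matched 1 gene identifier. The cells came from 8 *Atoh1(WT)CreERT2* mice, in which the tamoxifen-inducible recombinase CreERT2 is made from the *Atoh1* locus and switches on the red reporter tdTomato (tdTom) in a cell and its progeny. Per the study's methods, the mice were homozygous for the *Atoh1* allele, heterozygous for the Rosa26 tdTom reporter, on a C57BL/6 background, of both sexes and young adult. All of them had received tamoxifen at 1 mg a day for 3 days, the schedule that the labels give and that the methods give for the secretory signature. Live EpCAM+ cells of every mouse were split by the sort into a tdTom+ and a tdTom- fraction, which gave 8 libraries of each. EpCAM marks the surface of the epithelium, and the methods describe a preparation enriched for crypts of the proximal small intestine. Both fractions carried the same alleles and treatment, and the label marks cells in which the *Atoh1* locus was active, so the fractions differ in label and not in genotype.

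Enteroendocrine cells are the hormone-secreting cells of the gut epithelium. They pack peptide hormones and amines into dense-core granules, whose matrix is built by the acidic proteins of the granin family. Prohormones are cut in these granules by proprotein convertases and trimmed by carboxypeptidases. Enterochromaffin cells are the enteroendocrine cells that make serotonin from tryptophan, in which TPH1 carries out the rate-limiting hydroxylation, DDC removes the carboxyl group and the vesicular transporter VMAT1, encoded by *Slc18a1*, loads the amine into granules.

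Sequence is shown for the members that hold a cyclic AMP response element in the 250 bases before a RefSeq start of transcription (GRCm38.p6). This element is the site of the CREB family of transcription factors. The RefSeq start can differ from the start of the gene in the deposited Ensembl coordinates given below. By those coordinates, the stretches shown for *Chgb* and *Scg2* lie inside the gene. RefSeq windows were matched for 8 of the 10 genes, with 10 windows in all, and *Cpe* and *Slc18a1* had none. In each line below, 30 bases are given 5′ to 3′ on the gene's strand and the capitals mark the 8-base match.
Chga, chr12:102554886-102554915, plus strand: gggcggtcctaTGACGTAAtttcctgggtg
Chgb, chr2:132781559-132781588, plus strand: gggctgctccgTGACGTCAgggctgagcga
Scg2, chr1:79440076-79440105, minus strand: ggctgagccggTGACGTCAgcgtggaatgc
Pcsk1, chr13:75089768-75089797, plus strand: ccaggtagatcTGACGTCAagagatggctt

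The palindrome TGACGTCA was found in *Chgb*, *Scg2* and *Pcsk1*, where it began 72, 68 and 78 bases before the RefSeq start. It occurred in 1.55% of all 32851 windows of the same length. In *Chga* the form TGACGTAA began 44 bases before the RefSeq start, and 0.447% of all windows held it on either strand. The shorter half-site TGACG, which is part of both, was found in 8 of the 10 windows of these genes, against 17.8% of all windows. Those windows belonged to 7 of the 8 genes. *Ddc* was the gene without it, and one of its windows instead held TATAAA on the opposite strand, as did 12.4% of all windows on either strand. These were among 10 motifs searched on both strands, chosen with knowledge of the promoters of these genes, and a match is a description of letters and not of binding.

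Total counts ranged from 17116405 to 25323567 per library, and 3 counts, taken as the limit that a count of 0 allows, corresponded to 0.118 to 0.175 CPM (counts scaled to a common library size, with TMM factors). *Atoh1*, the locus that drives the label, ranged from 48 to 80.1 CPM with the label and from 0.502 to 1.25 CPM without it. Of the 15323 genes tested, 25.8% were higher and 30.0% were lower in tdTom+ cells at an adjusted p under 0.01 (edgeR, mouse as a block), and the median log2 fold change of all genes was 0.017. The libraries of mouse 7 stood apart. Its log2 ratio of tdTom+ over tdTom- was the highest of the 8 mice for 10 of the 10 genes, and the log2 fold changes of the 10 genes without it are given below. In bulk RNA, fewer cells of a type cannot be told apart from less RNA per cell.

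The comparison of tdTom+ with tdTom- cells asked which genes of the granule and serotonin machinery differ in level between labelled and unlabelled cells. The paper reports that mature enteroendocrine cells and tuft cells lacked the reporter soon after a single pulse of tamoxifen. Enteroendocrine cells carried it some days later. How this bears on the 10 genes was not tested. Of the 10 genes, 9 were higher and 1, *Ddc*, was lower in tdTom+ cells, each in 8 of 8 mice. The rise ranged from 0.91 on the log2 scale for *Scg2* to 1.99 for *Pcsk1*, and *Ddc* fell by 1.30. None of the 10 genes overlapped between the fractions. Among all genes tested, 14.6% had ranges that did not overlap and lay higher in tdTom+ cells, and 17.0% had such ranges that lay lower.

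**Figure D1:**
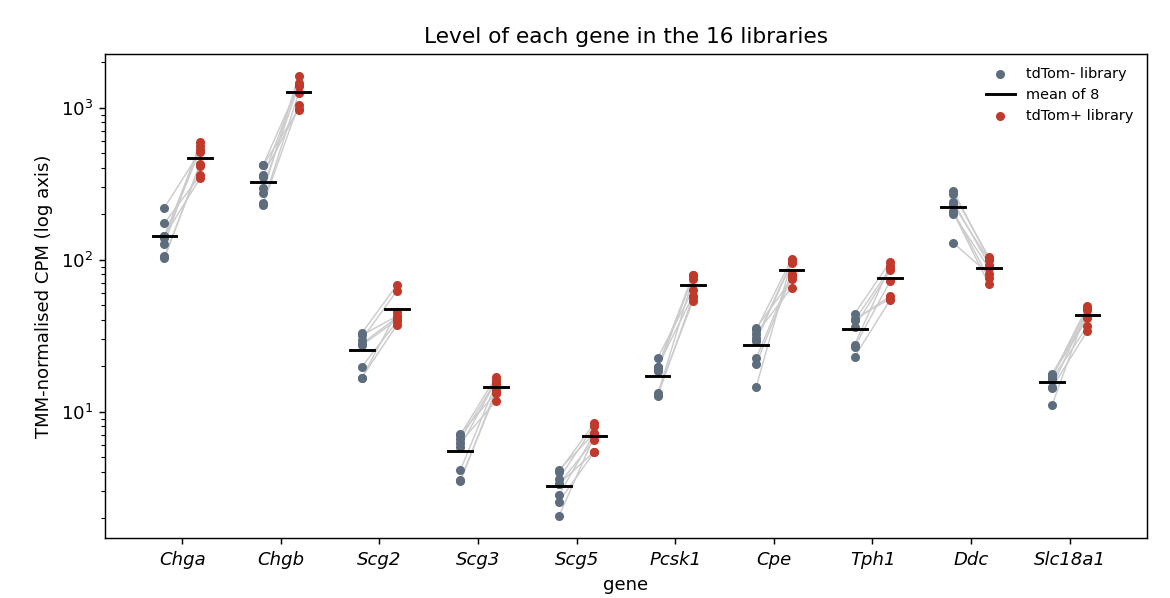
TMM-normalised CPM on a log axis for each gene in the 8 tdTom- and 8 tdTom+ libraries, with grey lines joining the libraries of 1 mouse and black bars at the mean of 8. *Chga* ran from 102 to 220 CPM in tdTom- and from 343 to 593 CPM in tdTom+ libraries, and *Ddc* is the gene whose lines fall.

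Among the granins, *Chga* and *Chgb* were the highest in level. *Chga* (ENSMUSG00000021194, chromosome 12 from 102554969 to 102565027, plus strand), which encodes chromogranin A, the general marker of enteroendocrine cells, had a lowest, median and highest value of 343, 470 and 593 CPM in tdTom+ libraries. In tdTom- libraries these values were 102, 141 and 220 CPM. The tdTom+ libraries of mice 3, 4, 7 and 8 were high and those of mice 1 and 2 low, and among tdTom- libraries that of mouse 8 was highest. The means were 466 ± 93.3 and 144 ± 38.3 CPM (SD, n = 8 each), with a log2 fold change of 1.71 ± 0.13 (SE, edgeR adjusted p = 6.7e-08).

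*Chgb* (ENSMUSG00000027350, chromosome 2 from 132781278 to 132795079, plus strand) encodes chromogranin B, a granule matrix protein like chromogranin A. Its tdTom+ values were 972, 1318 and 1621 CPM (lowest, median, highest) and its tdTom- values 230, 322 and 419 CPM. The same 4 mice were highest in tdTom+ cells as for *Chga*. The log2 fold change was 1.98 ± 0.14 (SE, edgeR adjusted p = 2.4e-08), a ratio of 3.95.

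The secretogranins were lower in level. *Scg2* (ENSMUSG00000050711, chromosome 1 from 79434669 to 79440120, minus strand), the precursor of the peptide secretoneurin, was at 37.4, 42.2 and 68.5 CPM in tdTom+ and 16.6, 27.6 and 32.8 CPM in tdTom- libraries. The tdTom+ libraries of mice 3 and 4 lay above the other 6. The gap between the highest tdTom- and the lowest tdTom+ library was small, and the log2 fold change of 0.91 ± 0.10 (SE, edgeR adjusted p = 3.1e-06) was the smallest of the 9 genes that rose.

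*Scg3* (ENSMUSG00000032181, chromosome 9 from 75643264 to 75683996, minus strand), a granin that binds chromogranin A and the granule membrane, was at 11.7, 14.5 and 16.8 CPM in tdTom+ libraries. Its tdTom- values were 3.47, 6.07 and 7.16 CPM, with mice 5, 6 and 7 low. The log2 fold change was 1.43 ± 0.13 (SE, edgeR adjusted p = 3.7e-07). *Scg5* (ENSMUSG00000023236, chromosome 2 from 113776362 to 113829121, minus strand) encodes 7B2, the chaperone of the convertase PC2. It was the lowest of the 10 genes in CPM, at 5.44, 7.04 and 8.41 in tdTom+ and 2.05, 3.34 and 4.14 in tdTom- libraries, from 45 to 178 counts. Its log2 fold change was 1.10 ± 0.11 (SE, edgeR adjusted p = 1.3e-06).

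*Chga* and *Chgb* held most of the granin RNA. Of the summed CPM of the 5 granins, they made up 96.1% ± 0.593 in tdTom+ libraries, against 93.2% ± 1.15 in the tdTom- ones (SD, n = 8 each), with ranges of 95.4 to 97.1% and 91.1 to 94.8%. Without mouse 7 the log2 fold changes of *Chga*, *Chgb*, *Scg2*, *Scg3* and *Scg5* were 1.64, 1.90, 0.84, 1.36 and 1.02.

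Both processing enzymes rose. *Pcsk1* (ENSMUSG00000021587, chromosome 13 from 75089826 to 75132498, plus strand) encodes the convertase PC1/3, which cuts prohormones at basic residues. It was at 53.7, 69.3 and 79.2 CPM in tdTom+ and 12.6, 18.8 and 22.5 CPM in tdTom- libraries. The fractions were far apart in every mouse, and its log2 fold change of 1.99 ± 0.10 (SE, edgeR adjusted p = 7.7e-10) was the largest of the 10 genes. *Cpe* (ENSMUSG00000037852, chromosome 8 from 64592558 to 64693040, minus strand) encodes carboxypeptidase E, which removes the basic residues left after that cut. Its tdTom+ values were 65.5, 87.9 and 101 CPM and its tdTom- values 14.5, 29.8 and 35.4 CPM, the lowest in mouse 7. The log2 fold change was 1.68 ± 0.15 (SE, edgeR adjusted p = 2.8e-07). Without mouse 7 the values were 1.91 for *Pcsk1* and 1.54 for *Cpe*.

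The serotonin genes did not move together. *Tph1* (ENSMUSG00000040046, chromosome 7 from 46647130 to 46672537, minus strand) was at 54.4, 78.8 and 97.1 CPM in tdTom+ and 23, 38.1 and 44.1 CPM in tdTom- libraries. In tdTom+ cells mice 1, 2 and 6 were low, and in tdTom- cells mice 5, 6 and 7. The log2 fold change was 1.11 ± 0.12 (SE, edgeR adjusted p = 2.3e-06). *Slc18a1* (ENSMUSG00000036330, chromosome 8 from 69037711 to 69089235, minus strand) was at 34.1, 44.7 and 49.4 CPM in tdTom+ and 11, 16.5 and 17.7 CPM in tdTom- libraries, and its log2 fold change was 1.47 ± 0.10 (SE, edgeR adjusted p = 1.1e-08).

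*Ddc* (ENSMUSG00000020182, chromosome 11 from 11814101 to 11898144, minus strand) had the opposite direction. It was at 68.9, 90.6 and 104 CPM in tdTom+ and 129, 219 and 283 CPM in tdTom- libraries. The tdTom- library of mouse 7 was the low one, and the highest came from mouse 6. The log2 fold change was -1.30 ± 0.09 (SE, edgeR adjusted p = 1.3e-08), a ratio of 2.45 in favour of tdTom- cells. DDC is not particular to serotonin cells, since it also acts on L-DOPA and is present in absorptive cells of the intestine. The 8 absorptive marker genes listed below moved in the same direction as *Ddc*. Their summed level in the tdTom- library of mouse 7 was 14550 CPM, against 24823 to 38346 CPM in the other 7, and their part in the *Ddc* result was not tested. Without mouse 7 the log2 fold changes of *Tph1*, *Slc18a1* and *Ddc* were 1.03, 1.38 and -1.38.

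CPM ratios between these genes differed between the fractions. They are not scaled by gene length, so they compare the fractions and not the levels of the genes. The part of absorptive cells in the ratio with *Ddc* was not tested. *Ddc* CPM over *Tph1* CPM averaged 1.23 ± 0.313 in tdTom+ libraries, against 6.76 ± 2.84 in tdTom- ones (SD, n = 8 each), with ranges of 0.877 to 1.85 and 4.67 to 12.3. *Tph1* CPM over *Chga* CPM averaged 0.161 ± 0.014 in tdTom+ libraries, against 0.245 ± 0.0393 in tdTom- ones (SD, n = 8 each).

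**Figure D2:**
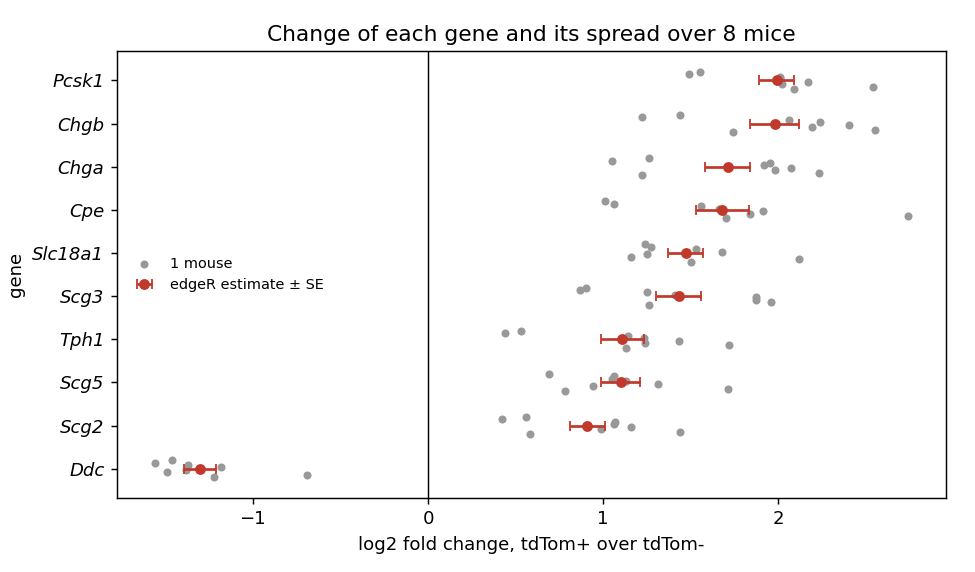
Log2 fold change of tdTom+ over tdTom- for each gene, with the edgeR estimate and its standard error in red and the 8 mice in grey. *Pcsk1* (1.99) and *Chgb* (1.98) lie at the top, *Scg2* (0.91) is the smallest rise and *Ddc* (-1.30) is the fall.

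Whether the genes changed by different amounts was asked within mice, by an exact two-sided sign-flip test of the difference in log2 ratio for each of the 45 pairs, adjusted over the 45. The difference passed an adjusted p of 0.05 for 39 pairs, including 9 of the 9 pairs with *Ddc*. *Chgb* rose more than *Tph1* by 0.87 ± 0.13 on the log2 scale and *Chga* more than *Tph1* by 0.60 ± 0.22 (SD, n = 8 mice). Both held in 8 of 8 mice (exact p = 0.00781, the smallest that 8 mice can give, adjusted p = 0.013). *Slc18a1* rose more than *Tph1* by 0.36 ± 0.35, in 6 of 8 mice (exact p = 0.0312, adjusted p = 0.0361, n = 8). The 6 pairs that did not pass had differences of 0.00 ± 0.22 for *Pcsk1* and *Chgb*, 0.02 ± 0.34 for *Chga* and *Cpe*, 0.02 ± 0.31 for *Tph1* and *Scg5*, 0.04 ± 0.44 for *Slc18a1* and *Scg3*, 0.22 ± 0.39 for *Cpe* and *Slc18a1*, and 0.24 ± 0.42 for *Chga* and *Slc18a1* (SD, n = 8 mice).

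Levels were compared between genes as CPM per kilobase of exon length. In tdTom+ libraries the order was *Chgb* (462 ± 88.6), *Chga* (248 ± 49.6), *Cpe* (41.2 ± 6.29), *Pcsk1* (20.9 ± 3.35), *Tph1* (20.4 ± 4.75), *Ddc* (19.9 ± 2.87), *Scg2* (18.8 ± 4.65), *Slc18a1* (8.01 ± 1.05), *Scg3* (6.43 ± 0.774) and *Scg5* (4.39 ± 0.687 CPM per kilobase, SD, n = 8 throughout). The neighbours from *Pcsk1* to *Scg2* did not differ beyond their spread. In tdTom- libraries *Chgb* (118 ± 27.5) and *Chga* (76.6 ± 20.3) again came first, and *Ddc* followed *Chga* (49.5 ± 10.8 CPM per kilobase, SD, n = 8). *Cpe* (13.1 ± 3.56), *Scg2* (10.1 ± 2.64), *Tph1* (9.45 ± 2.14), *Pcsk1* (5.32 ± 1.18), *Slc18a1* (2.89 ± 0.416), *Scg3* (2.45 ± 0.691) and *Scg5* (2.06 ± 0.459) followed. There the neighbours *Scg2* and *Tph1*, and *Scg3* and *Scg5*, did not differ beyond their spread. Of the 18 neighbouring pairs in both fractions, 13 passed the exact sign-flip test at an adjusted p of 0.05.

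Variation across mice was compared between the genes within each fraction. Log2 CPM was correlated over the 8 libraries of a fraction for 90 pairs in all, with exact two-sided permutation tests adjusted over the 90. For the 36 pairs without *Ddc*, Pearson's r ranged from 0.36 to 0.97 (median 0.76) in tdTom+ and from 0.28 to 0.96 (median 0.75) in tdTom- libraries. Of these, 11 in tdTom+ and 14 in tdTom- libraries passed an adjusted p of 0.05, and by Spearman's rho 6 passed in each fraction. No pair with *Scg5* passed in tdTom- libraries. After the 2 libraries farthest from the median were left out, r over the 36 pairs ranged from -0.10 to 0.99 and from -0.11 to 0.98. For the 9 pairs with *Ddc*, r ranged from -0.31 to 0.65 and from -0.17 to 0.66, and 0 passed in either fraction. The relation of *Chga* to *Chgb* was close in both. In tdTom+ libraries r was 0.97 (exact permutation p = 9.9e-05, adjusted p = 0.00893) and rho 0.95 (exact permutation p = 0.00114, adjusted p = 0.0257), with r = 0.95 after the 2 libraries farthest from the median of *Chga* were left out. In tdTom- libraries r was 0.93 (exact permutation p = 3.0e-04, adjusted p = 0.00893) and rho 0.95 (exact permutation p = 0.00114, adjusted p = 0.0257), with r = 0.96 without those 2 libraries. *Cpe* and *Slc18a1* in tdTom- libraries had r = 0.88 (adjusted exact permutation p = 0.0324) and rho 0.90 (adjusted exact permutation p = 0.0342). Without the 2 libraries r was 0.36. Fewer libraries and a narrower range remain then, so whether the relation rested on the 2 cannot be told. *Chga* and *Scg5* in tdTom+ libraries went from r = 0.84 (adjusted exact permutation p = 0.0389) to 0.50 by the same step.

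**Figure D3:**
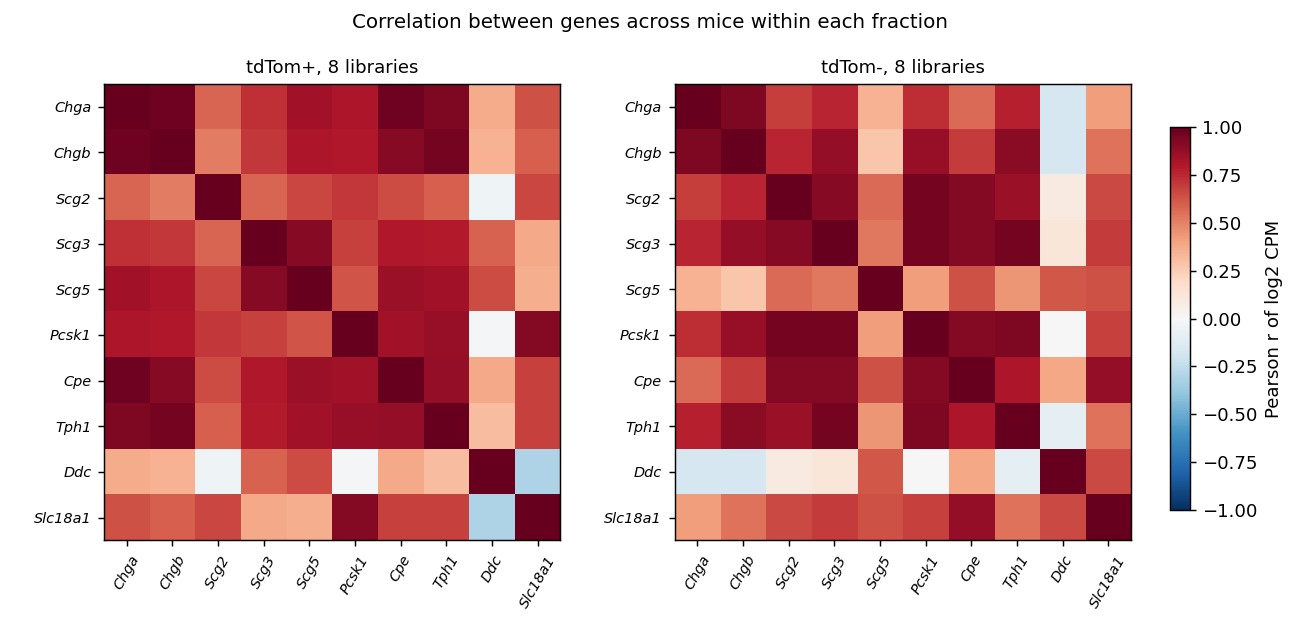
Pearson's r of log2 CPM between each pair of genes over the 8 tdTom+ libraries (left) and the 8 tdTom- libraries (right), on a colour scale from -1 to 1. The negative values all lie in the rows of *Ddc*, with r from -0.31 to 0.65 and from -0.17 to 0.66, and the block of *Chga* and *Chgb* is dark in both (0.97 and 0.93).

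The genes most like *Chga* and *Tph1* were ranked among 10726 genes with a mean of at least 5 CPM, by the correlation of deviations from the fraction means over all 16 libraries. This is a description, since the libraries share depth and mouse. For *Chga* they were *Chgb* (r = 0.951), *Amigo2* (0.921) and *Ffar2* (0.917). For *Tph1* they were *Slc38a11* (0.934), *Chgb* (0.924) and *Gng4* (0.920). *Pcsk1* came next for *Tph1*, in place 4, and *Chga* was in place 11 for *Tph1*. *Ddc* was in place 4850 for *Chga* (r = 0.009) and 3594 for *Tph1* (r = 0.062).

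Other genes of the pathways were taken from written lists. Over all genes tested, 25.8% were higher and 30.0% were lower at the same threshold, which is the background for the counts of each list. Among 16 genes of prohormone processing and granule peptides, 14 could be tested, of which 7 were higher, 4 were lower and 3 did not pass (median log2 fold change 0.55, against 0.017 for all genes). The share that was lower was near that of all genes tested. The carboxypeptidase genes *Cpm* (2.78 ± 0.10, SE) and *Cpd* (1.76 ± 0.11) and the amidating enzyme gene *Pam* (1.25 ± 0.12) were higher, and *Pam* went from 12.9 ± 1.99 to 30.9 ± 6.46 CPM (SD, n = 8 each). The convertase genes *Pcsk4* (-2.40 ± 0.16, SE) and *Pcsk5*, at 42.5 ± 8.46 CPM in tdTom+ against 169 ± 24 CPM (SD, n = 8 each), were lower. *Pcsk4* was lower in 8 of 8 mice, but its ranges overlapped, at 1.35 to 7.07 CPM in tdTom+ and 4.33 to 30.6 CPM in tdTom- libraries. *Pcsk2*, the convertase whose chaperone is the product of *Scg5*, was below the expression filter at 0.358 ± 0.165 CPM in tdTom+ libraries, against 0.47 ± 0.169 CPM (SD, n = 8 each).

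For amine synthesis, transport and breakdown, 8 of 13 genes could be tested, with 3 higher and 5 lower (median log2 fold change -1.60). *Slc18a2*, the second vesicular monoamine transporter gene, was higher but low in level, at 1.77 ± 0.577 against 0.709 ± 0.193 CPM (SD, n = 8 each; log2 fold change 1.29 ± 0.21, SE). Genes of serotonin uptake and breakdown were lower. *Slc6a4*, which encodes the serotonin reuptake transporter, was at 18.8 ± 4.36 CPM in tdTom+ cells, against 70.2 ± 9.24 CPM without the label (SD, n = 8 each; log2 fold change -1.92 ± 0.08, SE). *Maoa* (-2.41 ± 0.08, SE) and *Maob* (-2.47 ± 0.07), the monoamine oxidase genes, and *Slc6a19* (-3.13 ± 0.11), a neutral amino acid transporter gene of the brush border, fell further. The 8 absorptive marker genes listed below fell too, with log2 fold changes from -3.65 to -2.39. Their part in the results for these genes was not tested. *Tph2*, the tryptophan hydroxylase gene of neurons, had 0 counts in all 16 libraries.

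**Figure D4:**
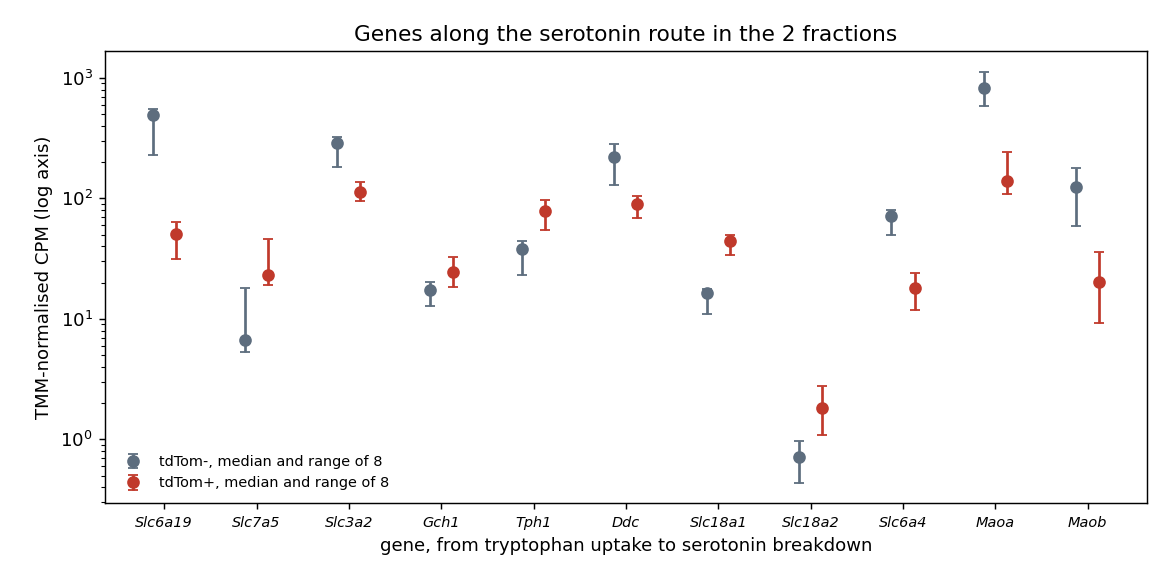
TMM-normalised CPM on a log axis for genes from tryptophan uptake to serotonin breakdown, with points at the median and bars from the lowest to the highest of 8 libraries. *Tph1*, *Slc18a1* and *Slc18a2* lie higher in tdTom+ libraries, and *Ddc*, *Slc6a4*, *Maoa* and *Maob* lie lower. The part of absorptive cells in these values was not tested.

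Tetrahydrobiopterin is the cofactor of TPH1, and 8 of 8 genes of its synthesis and recycling could be tested, with 2 higher, 5 lower and 1 that did not pass (median log2 fold change -0.37). The share that was higher was near that of all genes tested. *Gchfr*, whose product restrains the first enzyme of the route, fell by 3.25 on the log2 scale (SE 0.14). *Spr* (-0.52 ± 0.05, SE) was lower, and *Pcbd1* (0.85 ± 0.06) was higher.

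The lists of dense-core granule release, peptide hormones, enteroendocrine transcription factors and enteroendocrine sensors lay on the side of the granins. All 21 of the 21 release genes tested were higher (median log2 fold change 2.58), including *Rab27a* (5.75 ± 0.11, SE), *Rab27b* (4.79 ± 0.10) and *Rab3d* (3.94 ± 0.09). Secretory granules of other cells use such genes too, and the goblet and Paneth markers moved with them (below). Among peptide hormones, 8 of 10 were higher (median 1.23), with *Tac1* (3.78 ± 0.15, SE), *Gcg* (3.38 ± 0.17), *Ghrl* (2.06 ± 0.12) and *Sct* (1.28 ± 0.11) among them. All 17 of 17 transcription factor genes were higher (median 2.37). *Neurog3*, which starts the enteroendocrine programme, was at 15.3 ± 5.73 CPM in tdTom+ cells, against 0.977 ± 0.607 CPM without the label (SD, n = 8 each; log2 fold change 4.01 ± 0.15, SE), and *Nkx2-2* (3.46 ± 0.18), *Fev* (3.10 ± 0.17) and *Insm1* (2.60 ± 0.15) were next in adjusted p. Of the sensor genes, 10 of 10 tested were higher (median 1.98), including the fatty acid receptor genes *Ffar4* (4.86 ± 0.14, SE) and *Ffar2* (3.40 ± 0.14), the irritant channel gene *Trpa1* (1.96 ± 0.13) and *Scn3a* (2.14 ± 0.15). *Piezo2* had 0 counts in all libraries. The median over the 10 genes of granins, processing and serotonin was 1.45.

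**Figure D5:**
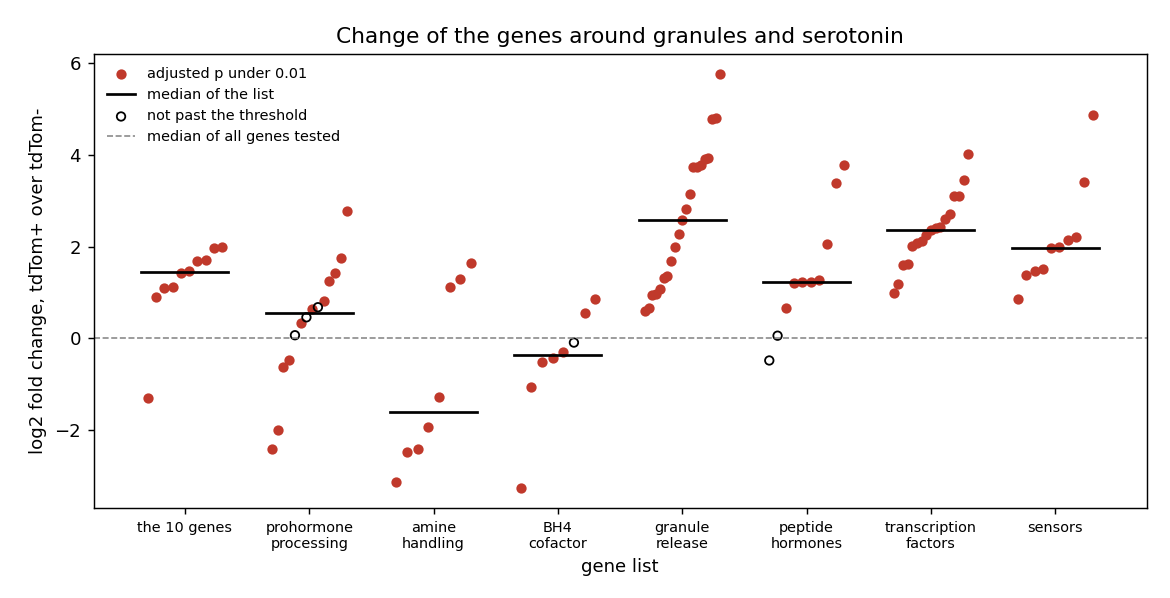
Log2 fold change of each tested gene, by list, with filled points at an adjusted p under 0.01 (edgeR), open points for genes that did not pass, a black line at the list's median and a dashed line at the median of all genes tested (0.017). The medians run from -1.60 for amine handling to 2.58 for granule release.

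Markers of other cell types were read for what else the fractions held. The summed level of 8 goblet genes was 128104 to 264225 CPM in tdTom+ and 952 to 1511 CPM in tdTom- libraries, and that of 8 Paneth genes was 52683 to 139451 against 405 to 595 CPM. All 8 of each list were higher, as were 7 of 7 tuft genes tested (82.7 to 319 against 17.7 to 102 CPM). All 8 absorptive genes were lower, at 1563 to 6021 CPM in tdTom+ and 14550 to 38346 CPM in tdTom- libraries. Mouse 7 set the lowest absorptive sum of both fractions, and without it the ranges were 2821 to 6021 and 24823 to 38346 CPM. It also set the lowest tuft sum of tdTom- libraries, where the range without it was 31.4 to 102 CPM. In tdTom+ libraries mouse 7 set the highest Paneth sum and the lowest goblet sum. Without it these ranges were 52683 to 97277 CPM for Paneth and 132868 to 264225 CPM for goblet genes. The part of these markers in the results for the 10 genes was not tested. Neurons and islet cells also make granins, and mast cells *Tph1*. Of 10 enteric neuron markers 4 could be tested and were higher, *Ret*, *Tubb3*, *Nefl* and *Nefm*, while *Hand2* was at 0. The list summed to 17 to 27.5 against 2.74 to 10.2 CPM (5.02 to 10.2 CPM without mouse 7), of which *Ret* held 13.3 ± 2.37 against 5.39 ± 2.02 CPM (SD, n = 8 each). *Prph*, below the expression filter, had the other direction in 8 of 8 mice, at 0.051 ± 0.0473 against 0.337 ± 0.154 CPM (SD, n = 8 each). *Elavl4*, also below the filter, was higher in tdTom+ cells in 8 of 8 mice, at 0.394 ± 0.216 against 0.0231 ± 0.0336 CPM (SD, n = 8 each). Of 10 mast cell markers *Kit* and *Tpsb2* could be tested and were higher (55.6 to 100 against 3.29 to 9.71 CPM for the list), and *Mcpt4* was at 0. *Kit* made up most of that sum in tdTom+ libraries, at 76.1 ± 14.7 against 3.72 ± 0.628 CPM (SD, n = 8 each). The mast cell protease genes *Mcpt1* (0.0585 ± 0.132 against 0.924 ± 1.12 CPM, SD, n = 8 each) and *Mcpt2* (0.0212 ± 0.0599 against 0.367 ± 0.449 CPM) were below the expression filter and had the other direction, in 8 and 6 of 8 mice. Of 6 islet markers *Iapp* alone could be tested and was higher, the list summed to 1.05 to 4.59 against 0.274 to 3.53 CPM (3.16 to 4.59 against 1.64 to 3.53 CPM without mouse 7), and *Ins1*, *Ins2*, *Ppy* and *G6pc2* were at 0. The 6 glial markers summed to 0.278 to 1.22 against 0.313 to 1.02 CPM, and *Sox10* was at 0.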

How the data were processed

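RNA of EpCAM+tdTom+ and EpCAM+tdTom- cells of 8 mice was sequenced from TruSeq Stranded mRNA libraries. The submitters' processing notes name TopHat2 2.1.1, Subread 1.5.2, DESeq2 1.14.1 and GRCm38.p3. Deposited values are unnormalized read counts of Ensembl genes, made by the authors with featureCounts, for which the file headers give version 1.5.0-p1, on exons of the reverse strand, with primary alignments. A GENCODE M21 symbol was found for 44585 of 45513 identifiers, and coordinates are those of the deposited files. No exon of another gene overlapped the 10 genes in GENCODE M21.

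Counts were filtered with filterByExpr, scaled with TMM factors and tested with the quasi-likelihood F-test of edgeR 4.0.16 (R 4.3.3), with the mouse as a block, Benjamini-Hochberg adjustment over 15323 genes and a threshold of 0.01. The block was used because both fractions came from each mouse per the series design and share its number in the titles. Same-numbered libraries deviated together (mean correlation across genes 0.426, 0.245 to 0.634, against -0.0569 for other pairs). The methods name no block. Log2 CPM used a prior count of 2. CPM is given with SD, and fold changes with SE. Intervals and limits from counts cover counting error only. The labels give no sequencing batch. The script was tested on simulated data.

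The 10 genes and all lists were chosen with earlier results of these data known. Genes named were the 10, up to 4 per list with the smallest adjusted p and at least 1 CPM in the higher fraction, *Atoh1*, a fixed set (*Pcsk2*, *Pam*, *Tph2*, *Slc18a2*, *Slc6a4*, *Maoa*, *Neurog3*), cell type markers that could be tested or were at 0, and the 3 genes most like *Chga* and *Tph1*. Some genes that this rule takes in are not reported here. *Piezo2*, *Prph*, *Elavl4*, *Mcpt1* and *Mcpt2* were named after their values were seen. Alternatives were no block, relative log expression (RLE) or total-count scaling, TMM without the 10 most counted genes, other filters, DESeq2 1.42.0, limma-voom (limma 3.58.1), thinning, other thresholds and each mouse left out.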

Additional observations from a re-analysis of the deposited data

Results flagged for a closer look

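In tdTom- cells, the library of mouse 7 lay apart from the other 7 in 2 of the 10 genes. Its *Ddc* level was the lowest, at 129 CPM against a median of 219 CPM, and the gap to the next library was 0.559 of the whole range on the log2 scale. Its *Slc18a1* level was also the lowest, at 11 CPM against 14.3 to 17.7 CPM, with a gap of 0.544. Both gaps were above Dixon's 95% limit for 8 values. The 10 genes were examined in both fractions, which is 20 sets of values, and chance passes the limit in about 1 of 20. Without mouse 7 the log2 fold changes were -1.38 for *Ddc* and 1.38 for *Slc18a1*.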

How the results depend on the processing

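Each of the 10 genes kept its direction and its side of the threshold in all 180 combinations of gene and alternative in scaling, filter, test, block, depth or mice, with leave-one-mouse-out ranges of 1.64 to 1.80 for *Chga*, 1.03 to 1.21 for *Tph1* and -1.38 to -1.18 for *Ddc*. In the fit with no replicate block, which drops the pairing by mouse, 10 of the 10 genes and 7606 genes in all passed (8556 with the block), and the log2 fold change of *Chga* was 1.69. The block changed the count of no list by over 1.5 times. Also requiring a log2 fold change of 1 or more in either direction left 9 of the 10 genes, without *Scg2* at 0.91, and 3498 genes in all, 1740 higher and 1758 lower, with 4 higher and 2 lower in prohormone processing and 0 higher and 2 lower in the tetrahydrobiopterin list. A filter of 10 counts in every sample left 1 higher amine gene. At an adjusted p under 0.05, 1 peptide hormone gene was lower, and with each mouse left out in turn this count ranged from 0 to 1, the 1 arising without mouse 5. The filter of 10 counts and the fit without mouse 3 moved the median of all genes to 0.124 and 0.122, and turned the split from 3956 higher and 4600 lower to 4448 and 3356 (filter) and 4529 and 3626 (without mouse 3), of which the cause was not tested. Depth limits genes near 3 counts, such as *Pcsk2*, more than the 10 genes, which had at least 45 counts in every library.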
